A study of Mus musculus with 9 samples.

Results

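The genes described here are 9 transcription factors of valve mesenchyme and the secreted matrix protein periostin. They were taken by symbol (Twist1, Prrx1, Tbx20, Gata4, Gata6, Sox9, Msx1, Nfatc1, Tcf21 and Postn) from a matrix of 51810 genes, which lists all 10. Transcript levels had been measured by RNA sequencing in cultured interstitial cells of heart valves (VICs, which resemble fibroblasts and make the leaflet matrix), taken from C57BL/6J mice (aortic together with mitral valves). All groups grew in medium with 10% serum, insulin (5 ug/mL), EGF (2 ng/mL) and basic FGF (0.5 ng/mL). For 24 h, 3 samples received buffer (Control, called untreated in another label), 3 received 50 ug/mL LDL (low-density lipoprotein, which carries most plasma cholesterol) and 3 received 50 ug/mL oxidised LDL (oxLDL). The age and sex of the mice, and whether cells of several mice were pooled, are not given in the sources used here.

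Heart valves form from endocardial cushions, where endothelial cells turn into mesenchyme and later into interstitial cells. Twist1 and Tcf21 are basic helix-loop-helix factors, Prrx1 and Msx1 homeodomain factors, Tbx20 a T-box factor, Gata4 and Gata6 zinc finger factors, Sox9 an HMG-box factor and Nfatc1 a factor controlled by the calcium-dependent phosphatase calcineurin. Twist1, Tbx20, Msx1 and Sox9 act in the cushion mesenchyme, Nfatc1 is best known from the endocardium of the valves, and Tcf21 from fibroblasts that derive from the epicardium. Periostin is a matricellular protein of the fasciclin family that binds collagen and integrins and is abundant in valve and scar matrix.

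No member passed the test over all genes in any comparison of the 3 treatments. Prrx1 lay higher and Tcf21 and Tbx20 lower in all 3 LDL libraries than in all 3 Control libraries. Of all genes tested, 10.7% stood apart in this way, in either direction. The Prrx1 difference passed narrowly (limma adjusted p = 0.0495), and only when the replicate number was added to the fit. Pairing by number was read from these data and is not stated in the labels. Postn varied more between replicate numbers than between treatments. The other 6 members differed by at most 0.19 on the log2 scale between any 2 treatments.

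Values are TPM, the length-corrected share of each gene among all transcripts of a library, as deposited, so that levels of different genes can be compared. Means are given ± SD over n = 3 libraries. Differences are on the scale of log2(TPM + 1), with 95% confidence intervals (CI) and p-values of limma, adjusted by Benjamini-Hochberg over the 13495 genes whose mean over the libraries reached 1 TPM. All 10 members were among these. TPM keep no read depth, so no counting error can be given. Each library had 20985 to 21433 genes above 0. Whether the 3 libraries of a treatment stem from separate cultures or mice is not stated in the labels. The p-values then measure only how far these samples spread, possibly for technical reasons. In such bulk samples, fewer cells of a type and less RNA per cell cannot be told apart.

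The cultures carried the transcripts of valve fibroblasts. All 12 fibroblast markers on a list of such genes passed 1 TPM, with Vim at 4749 to 6523 TPM, Col1a1 at 1157 to 1584 TPM and Pdgfra at 146 to 193 TPM. Endothelial and macrophage transcripts were also present, with 13 of 13 markers past 1 TPM in each list and Cdh5 at 36.4 to 101 TPM. Of 11 cardiomyocyte markers 1 passed (Tnnt2, mean 24.3 TPM), of 7 smooth muscle markers 5, of 10 epicardial and mesothelial markers 5, of 7 melanocyte markers 4, of 8 chondrocyte markers 3 and of 7 Schwann cell markers 2. Libraries with the same replicate number deviated from their group means together over all genes tested (r of 0.17 to 0.50 in 9 pairs, against -0.31 to 0.13 in 18 pairs with different numbers). The same-numbered values were 0.47 to 0.50 for number 1 but only 0.17 to 0.35 for numbers 2 and 3. The numbers were therefore read as pairing the samples, from this check and not from a stated shared culture.

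The promoters of the 3 members whose LDL and Control libraries did not overlap, and of Postn, are shown because the results turn on these genes. Each stretch comes from the RefSeq table of promoters (GRCm38.p6, the build the authors name mm10), reads 5′ to 3′ on the strand of the gene, and leaves out bases in an exon of the gene in GENCODE M21. Capitals mark matches, on either strand, to any of 6 motifs: CANNTG (the E-box of helix-loop-helix factors), AGATAA (zinc finger factors such as Gata4), TAATTA (homeodomain factors), AGGTGT (T-box factors), ACAATG (SOX factors) and GGAAAA (NFAT factors). The Prrx1 stretch is chr1:163313711-163313900 on the minus strand, that of Tcf21 chr10:22820175-22820393 (minus), that of Tbx20 chr9:24774304-24774553 (minus) and that of Postn chr3:54360857-54361106 (plus).
Prrx1: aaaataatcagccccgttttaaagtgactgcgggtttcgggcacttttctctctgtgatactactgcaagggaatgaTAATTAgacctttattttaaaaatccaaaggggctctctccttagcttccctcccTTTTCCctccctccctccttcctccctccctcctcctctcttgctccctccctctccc
Tcf21: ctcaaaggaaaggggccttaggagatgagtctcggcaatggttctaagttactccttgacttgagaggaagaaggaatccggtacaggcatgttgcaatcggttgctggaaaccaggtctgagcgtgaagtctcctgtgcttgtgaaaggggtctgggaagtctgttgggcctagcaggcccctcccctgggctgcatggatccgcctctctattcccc
Tbx20: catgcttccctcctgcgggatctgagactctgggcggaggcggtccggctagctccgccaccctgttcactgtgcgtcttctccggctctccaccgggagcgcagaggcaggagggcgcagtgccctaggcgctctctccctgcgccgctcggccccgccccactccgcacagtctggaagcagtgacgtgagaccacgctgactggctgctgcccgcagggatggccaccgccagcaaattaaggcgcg
Postn: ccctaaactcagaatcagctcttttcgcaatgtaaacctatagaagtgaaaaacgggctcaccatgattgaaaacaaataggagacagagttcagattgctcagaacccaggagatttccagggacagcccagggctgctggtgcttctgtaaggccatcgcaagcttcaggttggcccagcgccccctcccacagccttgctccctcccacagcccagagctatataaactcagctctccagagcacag

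The table held promoters of 6 members (Prrx1, Postn, Msx1, Tbx20, Tcf21 and Twist1), Postn with 2 start sites. In the 250 bases before the start, Prrx1 held TAATTA from -173 to -168, a match found in 4.84% of all 32851 promoter windows of that length. It also held GGAAAA on the opposite strand from -118 to -113, and Msx1 held GGAAAA on its own strand from -192 to -187, against 20.4% of all windows. The E-box was found in 1 of the 6 members, Msx1 (from -210 to -205), and in 66.2% of all windows. Tcf21 held AGATAA from -31 to -26, inside a GENCODE exon and so not printed (9.99% of all windows), and Twist1 held AGGTGT on the opposite strand from -6 to -1 (11.8%). ACAATG was in none of the 6 (10.7% of all windows), and neither the Tbx20 stretch nor either Postn window held a match to any of the 6 motifs. No 2 matches overlapped. A match is only a run of letters in this window.

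The 10 genes spanned a wide range of levels. By mean over the 9 libraries the order was Prrx1 (230.0 TPM), Tbx20 (190 TPM), Tcf21 (135 TPM), Gata4 (125 TPM), Postn (95.4 TPM), Twist1 (69.3 TPM), Gata6 (51.3 TPM), Sox9 (47.3 TPM), Nfatc1 (18.9 TPM) and Msx1 (13.0 TPM). Neighbours in this order overlapped in their ranges over the 9 libraries, except Twist1 and Gata6, and Sox9 and Nfatc1. Within libraries the order was firmer for some pairs: Tbx20 exceeded Tcf21, and Nfatc1 exceeded Msx1, in 9 of 9, while Prrx1 exceeded Tbx20 in 7 and Postn exceeded Twist1 in 5. Prrx1 ranked between 542 and 805 among the 51810 genes of a library, and Msx1 between 7539 and 8502.

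**Figure D1:**
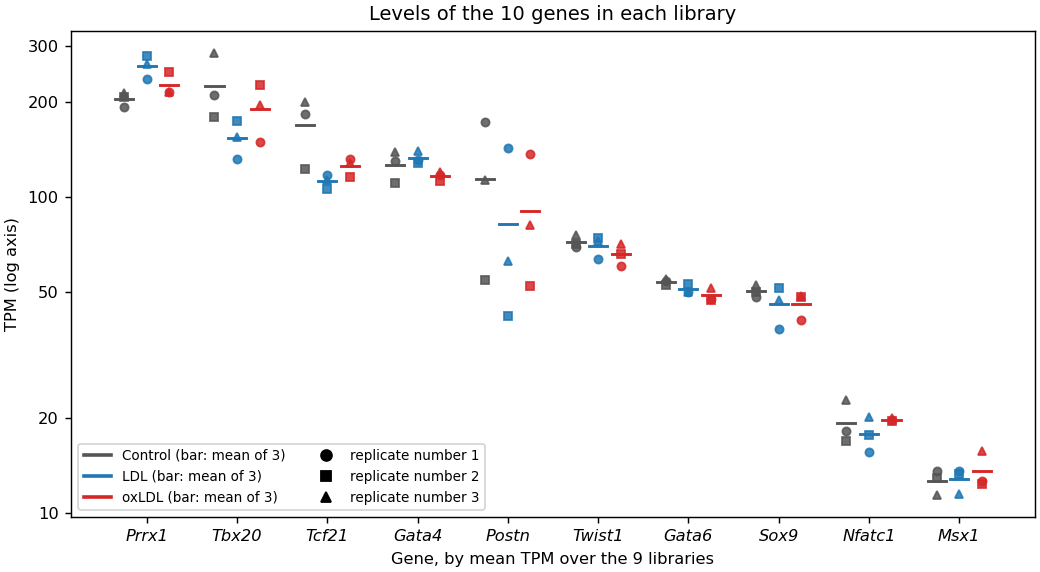
TPM of the 10 genes (log axis) in each of the 9 libraries, with genes ordered by their mean, colour for treatment, symbol shape for replicate number and a bar at the mean of 3 libraries. Postn spread from 41.9 to 173 TPM, while Gata6 stayed between 47.2 and 54.8 TPM.

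Spread over the libraries also differed between the genes. Gata6 was the steadiest, with a range of log2(TPM + 1) wider than that of only 7.91% of the genes tested. Its highest library was 1.16 times its lowest in TPM. The same ratio was 1.25 for Twist1, 1.26 for Gata4, 1.38 for Msx1 and for Sox9, 1.45 for Prrx1, 1.46 for Nfatc1, 1.89 for Tcf21 and 2.16 for Tbx20. For Postn it was 4.13, and its range of log2(TPM + 1) was at the 97.4th percentile of the genes tested.

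LDL was first set against Control, to see how these genes stood after exposure to the native lipoprotein. Of the 10 members 0 passed in limma, 1 higher and 2 lower had an unadjusted p under 0.05, and 1 (Prrx1, higher) passed with the replicate number as a block. Of all genes tested, 0.333% passed, 6.65% had an unadjusted p under 0.05 and 0.852% passed with the block (0.437% higher and 0.415% lower). Groups did not overlap for 3 members, 1 higher and 2 lower, against 10.7% of the genes tested (5.61% higher and 5.06% lower). In all 3 numbers 3 members were higher with LDL (Gata4, Msx1 and Prrx1) and 3 lower (Postn, Tbx20 and Tcf21), against 17.9% and 18.1% of the genes tested. The median difference of the members was -0.09, against -0.002 for all genes tested.

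Prrx1, which marks embryonic and fibroblastic mesenchyme, was at 193, 207 and 213 TPM in the Control libraries, at 236, 280 and 263 TPM with LDL and at 215, 248 and 215 TPM with oxLDL (replicate numbers 1, 2 and 3 in this order, here and below). Every LDL library lay above every Control library, and within each number LDL was highest, oxLDL between and Control lowest. The mean was 204 ± 10.6 TPM in Control (SD, n = 3) and 260 ± 22.4 TPM after LDL (SD, n = 3). The log2 difference was 0.34 (95% CI 0.14 to 0.54, limma adjusted p = 0.27), and with the block it had a CI of 0.21 to 0.47 (limma adjusted p = 0.0495). LDL libraries exceeded Control libraries of the same number by 1.22, 1.35 and 1.24 times.

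Tcf21, the fibroblast factor of epicardial origin, was at 183, 123 and 200.4 TPM in Control, at 117, 106 and 113 TPM with LDL and at 132, 116 and 129 TPM with oxLDL. All LDL libraries lay below all Control libraries, with Control 2 much closer to the LDL libraries than Control 1 and Control 3. The LDL libraries were close together at 112 ± 5.64 TPM (SD, n = 3), against 169 ± 40.6 TPM (SD, n = 3) in Control. The log2 difference of -0.56 (95% CI -0.92 to -0.20) did not pass (limma adjusted p = 0.35, and 0.081 with the block). Without Control 2 the difference was -0.77 and passed (limma adjusted p = 0.026). Leaving out this library, the Control library nearest to LDL, widens the gap by itself. Tcf21 passed under no other alternative.

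Tbx20, a regulator of cushion mesenchyme and myocardium, was at 211, 179 and 285 TPM in Control, at 132, 175 and 154 TPM with LDL and at 149, 227 and 195 TPM with oxLDL. The LDL libraries lay below the Control libraries, by a narrow gap, since Control 2 stood at 179 TPM and LDL 2 at 175 TPM. Within numbers 1, 2 and 3 the LDL library held 0.626, 0.973 and 0.541 of the Control level. The log2 difference was -0.53 (95% CI -0.98 to -0.08, limma adjusted p = 0.59, and 0.24 with the block), and -0.35 without Control 3.

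Postn was at 173, 54.7 and 113 TPM in Control, at 143, 41.9 and 62.6 TPM with LDL and at 137, 52.2 and 81.5 TPM with oxLDL. Libraries numbered 1 were highest and those numbered 2 lowest in each treatment, so the treatments overlapped widely. Within each number LDL lay below Control, at 0.825, 0.766 and 0.552 of its level. The log2 difference was -0.50 with a CI of -1.73 to 0.73 (limma adjusted p = 1), which narrowed to -0.77 to -0.23 with the block (limma adjusted p = 0.12). It was -0.11 without LDL 2, -0.13 without Control 1, -0.95 without Control 2 and -0.99 without LDL 1.

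**Figure D2:**
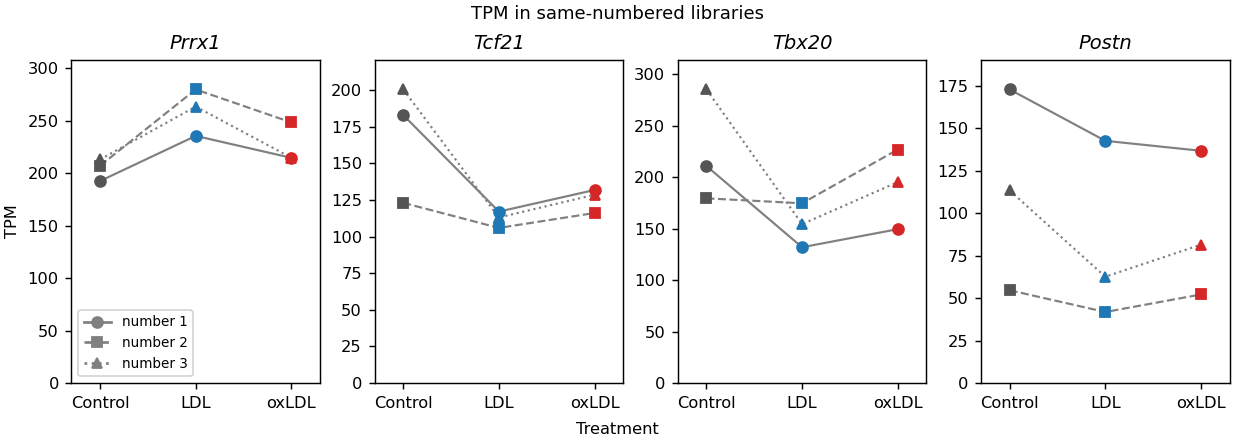
TPM of Prrx1, Tcf21, Tbx20 and Postn with Control, LDL and oxLDL, where each line joins the 3 libraries of a replicate number (solid 1, dashed 2, dotted 3) and axes start at 0. Each line of Prrx1 peaks at LDL and each line of Tcf21 dips there, while the 3 lines of Postn run apart from 41.9 to 173 TPM.

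Genes from lists of cell type markers are given beside these results. The summed level of 7 smooth muscle markers was 1510.0 to 1750.0 TPM in Control, 1060.0 to 1340.0 TPM with LDL and 1470.0 to 1530.0 TPM with oxLDL, with all LDL libraries below all others. Of the 5 tested, 0 passed in limma. At an unadjusted p under 0.05, 2 were lower with LDL, Acta2 (-0.50, limma adjusted p = 0.21) and Tagln (-0.34, limma adjusted p = 0.50). These 2 genes made up most of the sum, with means of 718 and 650 TPM over the 9 libraries. The defining marker Myh11 stayed at 0.38 to 0.71 TPM. The sum thus reflects mainly Acta2 and Tagln, in whatever cells held them, and is no measure of smooth muscle cells. Epicardial and mesothelial markers, relevant to Tcf21, summed to 84.6 to 86.4 TPM in Control and 79.6 to 89.5 TPM with LDL, and Wt1 was at 0 to 0.12 TPM. The 13 macrophage markers had a median difference of 0.28 between LDL and Control, with each mean above its Control mean, and 0 passed in limma or had an unadjusted p under 0.05. Over the 9 libraries, Prrx1, Tcf21 and Tbx20 correlated at -0.66, 0.45 and 0.57 with the smooth muscle sum (Pearson, log2 scale, as a description). With the sum of the fibroblast markers they stood at -0.77, 0.49 and -0.07. Which cells held these marker transcripts, and their part in the levels of Prrx1, Tcf21 and Tbx20, was not tested.

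The remaining members lay close to Control with LDL, and their groups overlapped. Gata4, which drives cardiac and cushion gene programmes, had means of 127 ± 14.3 TPM in Control (SD, n = 3) and of 133 ± 6.41 TPM after LDL, a log2 difference of 0.07 (95% CI -0.12 to 0.27). Gata6, its paralogue, averaged 51.0 ± 1.75 TPM against 53.9 ± 1.08 TPM, a difference of -0.08 (95% CI -0.22 to 0.06). Twist1, which keeps cushion mesenchyme proliferating, averaged 70.0 ± 5.67 TPM against 72.2 ± 3.30 TPM (-0.05, 95% CI -0.24 to 0.15). The intervals of these 3 genes lay within 0.3 log2 of 0 in both directions.

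Sox9, which directs expansion of valve precursors and cartilage matrix, had means of 50.3 ± 2.21 TPM in Control and of 45.7 ± 6.84 TPM after LDL (-0.15, 95% CI -0.41 to 0.12). LDL 1 was the low library, at 38.2 TPM. Msx1, a homeodomain repressor of cushion mesenchyme, averaged 12.8 ± 1.13 TPM against 12.6 ± 1.09 TPM (0.02, 95% CI -0.24 to 0.28). Nfatc1 averaged 17.8 ± 2.23 TPM against 19.2 ± 3.10 TPM (-0.10, 95% CI -0.38 to 0.17). For all 6 of these genes the limma adjusted p was at least 0.98, and at least 0.448 with the block.

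The comparison of oxLDL with Control asked the same of the oxidised lipoprotein, with the same Control libraries. Of the 10 members 0 passed in limma with or without the block, against 0.0148% of the genes tested (with the block 0.126%, of which 0.0593% higher and 0.0667% lower). At an unadjusted p under 0.05 there was 1 member, Tcf21, against 3.86% of all genes tested, and 5 with the block, 1 higher and 4 lower, against 9.08%. Groups did not overlap for Prrx1 (higher) and Gata6 (lower), against 7.33% of the genes tested (3.5% higher and 3.83% lower). The median difference was -0.13, against -0.003 for all genes tested.

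Tcf21 averaged 126 ± 8.29 TPM (SD, n = 3) with oxLDL, a log2 difference of -0.40 from Control (95% CI -0.76 to -0.04, limma adjusted p = 1, and 0.37 with the block). The oxLDL range of 116 to 132 TPM overlapped Control 2 at 123 TPM. Prrx1 averaged 226 ± 19.5 TPM, a difference of 0.14 (95% CI -0.06 to 0.34, limma adjusted p = 1, and 0.51 with the block). Its lowest oxLDL library (215 TPM) lay just above its highest Control library (213 TPM).

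Gata6 was at 54.2, 52.7 and 54.8 TPM in Control, at 49.9, 53.1 and 50.2 TPM with LDL and at 47.7, 47.2 and 51.7 TPM with oxLDL. All oxLDL libraries lay below all Control libraries, by a small margin, with a log2 difference of -0.14 (limma adjusted p = 1, and 0.51 with the block). Twist1 was at 69.6, 71.1 and 75.9 TPM in Control and at 60.6, 65.8 and 71.0 TPM with oxLDL, lower within each number while the groups overlapped (-0.13, 95% CI -0.32 to 0.06).

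Sox9 was likewise lower with oxLDL within each number (0.845, 0.966 and 0.926 of Control), with a log2 difference of -0.13 (95% CI -0.39 to 0.13). In all, 5 members were lower with oxLDL in every number (Gata6, Postn, Sox9, Tcf21 and Twist1) and 1 was higher in every number (Prrx1), against 14.5% and 13.1% of the genes tested. Postn differed by -0.29 (95% CI -1.52 to 0.94, and -0.56 to -0.02 with the block) and turned to 0.083 without Control 1 and to 0.043 without oxLDL 2. It was -0.74 without Control 2 and -0.64 without oxLDL 1. Tbx20 differed by -0.23 (95% CI -0.68 to 0.21). Gata4 differed by -0.11, Msx1 by 0.09 and Nfatc1 by 0.04, with the 3 genes at a limma adjusted p of 1.

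**Figure D3:**
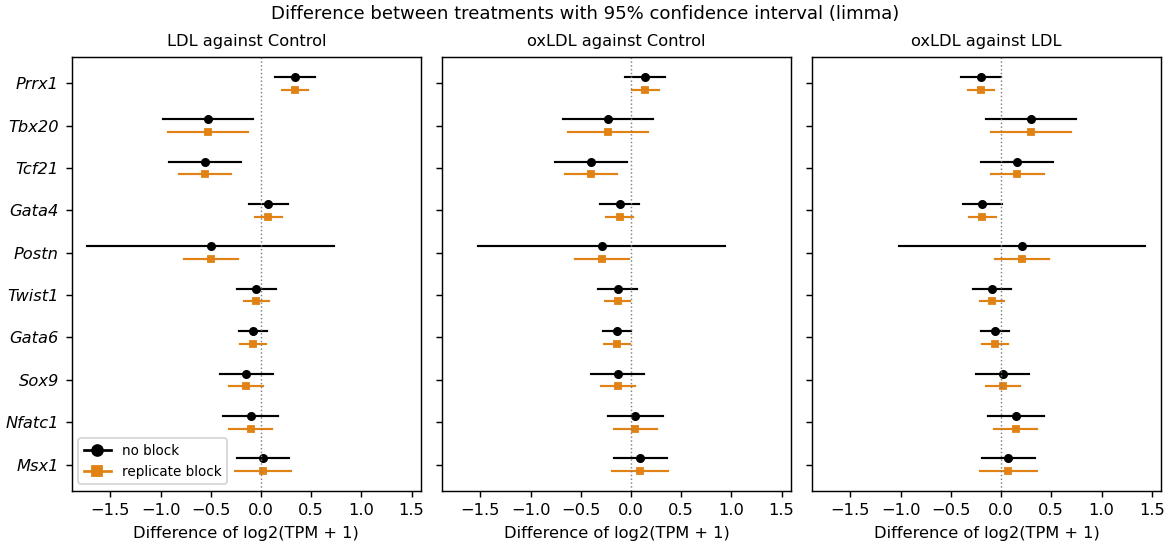
Difference of log2(TPM + 1) between treatments for the 10 genes, with 95% confidence intervals from limma, without (black circles) and with (orange squares) the replicate number as a block. The Prrx1 interval for LDL against Control ran from 0.14 to 0.54 without the block, and that of Postn from -1.73 to 0.73, narrowing to -0.77 to -0.23 with it.

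The comparison of oxLDL with LDL set the 2 lipoproteins against each other. Of the 10 members 0 passed in limma with or without the block, against 0.104% of the genes tested (0.0371% higher and 0.0667% lower), and 0.259% with the block. At an unadjusted p under 0.05 there was 1 member, Prrx1 (lower), against 3.91% of all genes tested, and 2 with the block, Prrx1 and Gata4 (both lower), against 8.51%. Prrx1 differed by -0.20 (95% CI -0.40 to -0.001, limma adjusted p = 1, and 0.33 with the block), lower with oxLDL in each number.

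Gata4 was at 131, 128 and 140.2 TPM with LDL and at 118, 113 and 120 TPM with oxLDL, and was the 1 member whose groups did not overlap here, against 8.31% of the genes tested (4.11% higher and 4.2% lower). Its difference was -0.19 (95% CI -0.38 to 0.01, limma adjusted p = 1, and 0.37 with the block), and the Control libraries, at 130.1, 111 and 139 TPM, spanned both groups. Tcf21 (0.16, 95% CI -0.20 to 0.52) and Tbx20 (0.30, 95% CI -0.15 to 0.74) were higher with oxLDL than with LDL in each number, against 16.6% of the genes tested, and neither passed. Gata4, Prrx1 and Twist1 were lower in each number, against 15.5% of the genes tested. The intervals of Postn (-1.02 to 1.44) and Sox9 (-0.25 to 0.28) held 0 near their middle, with differences of 0.21 and 0.01, and that of Postn turned to -0.18 without LDL 2 and to -0.14 without oxLDL 1. It was 0.70 without LDL 1 and 0.54 without oxLDL 2. Twist1 differed by -0.09, Gata6 by -0.06, Msx1 by 0.07 and Nfatc1 by 0.15.

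The oxLDL libraries of Nfatc1 were close together, at 19.6, 19.5 and 19.9 TPM, against 18.1, 16.8 and 22.7 TPM in Control and 15.6, 17.7 and 20.1 TPM with LDL. Msx1 was at 13.5, 12.9 and 11.4 TPM in Control, at 13.6, 13.3 and 11.5 TPM with LDL and at 12.6, 12.4 and 15.7 TPM with oxLDL, where oxLDL 3 stood above all other libraries.

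Where the variation of each gene lay was described by splitting the sum of squares of log2(TPM + 1) over the 9 libraries between treatment, replicate number and the remainder. Treatment held 71.1% for Prrx1, 65.0% for Gata6, 61.8% for Tcf21 and 46.3% for Tbx20, against a median of 16.9% over all genes tested. Replicate number held 88.2% for Postn, 59.2% for Sox9 and 56.7% for Twist1, against a median of 44.2%. In Postn treatment held 8.81%, and in Msx1 the remainder held 86.3%. These shares describe 9 libraries and were not tested.

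**Figure D4:**
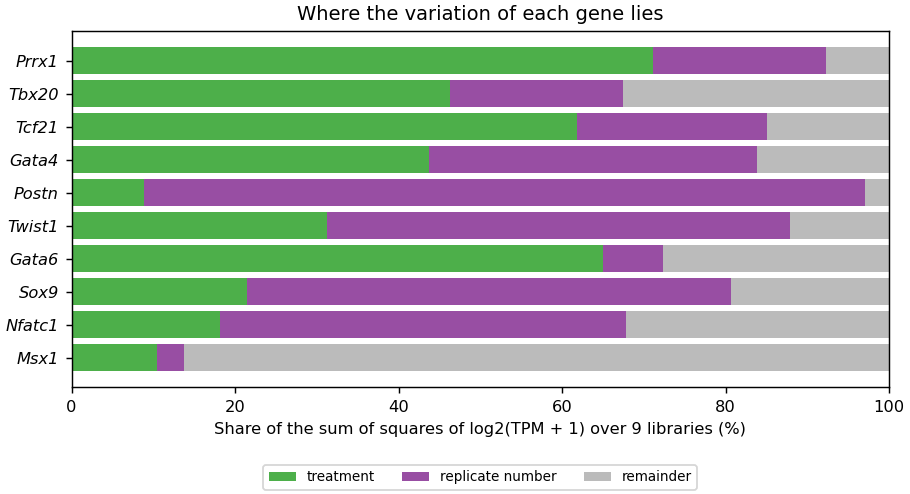
Share of the sum of squares of log2(TPM + 1) over the 9 libraries that goes with treatment, with replicate number and with neither, as stacked bars for each of the 10 genes. Treatment is the widest part for Prrx1 (71.1%), replicate number for Postn (88.2%) and the remainder for Msx1 (86.3%).

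Postn moved with endothelial transcripts across the libraries. The summed level of 13 endothelial markers was 510.0, 238 and 364 TPM in Control, 540.0, 241 and 268 TPM with LDL and 516, 230.0 and 309 TPM with oxLDL, highest in the libraries numbered 1 as for Postn. Its correlation with Postn over the 9 libraries was 0.96 (Pearson) and 0.90 (Spearman), on the log2 scale and as a description, since libraries share treatment and replicate number. Chondrocyte, cardiomyocyte and fibroblast marker sums followed at 0.90, 0.80 and 0.78 (Pearson), macrophage and melanocyte marker sums at 0.65 and 0.57. Some of these sums rest on few genes. The chondrocyte sum was mostly Col2a1, Col9a1 and Hapln1, all low (means of 5.94, 4.01 and 3.34 TPM). The cardiomyocyte sum was mostly Tnnt2 (mean 24.3 TPM), and the macrophage sum mostly Lyz2 (mean 338 TPM). The fibroblast sum was mostly S100a4 (mean 8710 TPM) and Vim (mean 5580 TPM). The sum for macrophages ran from 262 to 535 TPM in Control, from 258 to 833 TPM with LDL and from 116 to 844 TPM with oxLDL. Smooth muscle, Schwann cell and epicardial marker sums stood at 0.06, 0.28 and -0.55. The part of these cells in the level of Postn was not tested. Nfatc1, although known from valve endocardium, stood at -0.14 with the endothelial sum.

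Among the members themselves, Pearson r over the 9 libraries ran from -0.72 to 0.86 in 45 pairs, with a median of 0.10 and 9 pairs over 0.5. The closest pair was Twist1 and Sox9 (r = 0.86, Spearman 0.80), and it was also the closest in deviations from the treatment means (r = 0.93). Twist1 and Gata6 followed (r = 0.78), then Tbx20 and Sox9 (r = 0.75). Prrx1 and Tcf21 ran most opposite (r = -0.72), but their deviations from the treatment means correlated at -0.30. Gata4 and Tcf21 showed the reverse, at 0.34 over the libraries and 0.93 in deviations. All these values describe 9 libraries that share replicate numbers.

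**Figure D5:**
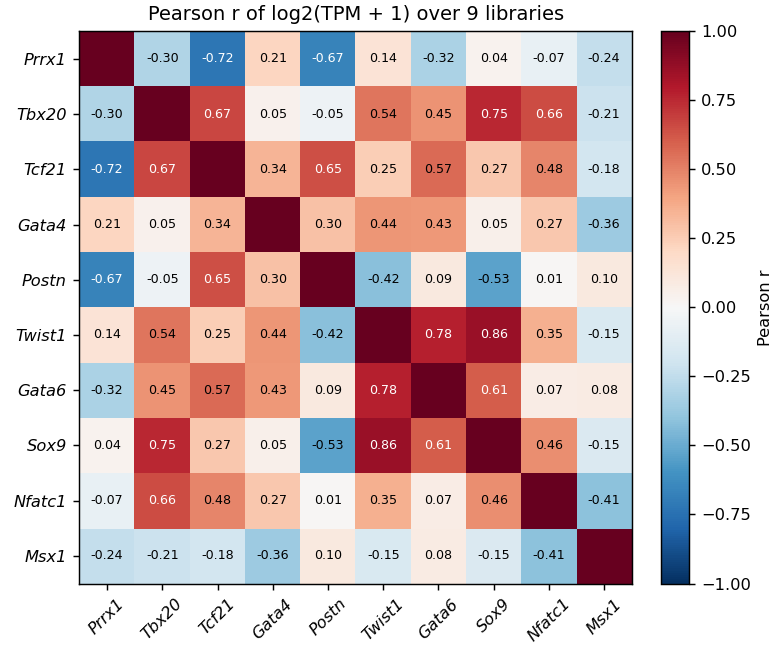
Pearson r of log2(TPM + 1) over the 9 libraries for each pair of the 10 genes, red for positive and blue for negative. Twist1 and Sox9 stand at 0.86, Prrx1 and Tcf21 at -0.72.

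Of the other 13494 genes tested, those most like each member over the 9 libraries were found by Pearson r, leaving out clone-named models and pseudogenes. Postn was most like Adamtsl5 (r = 0.99, Spearman 0.97) and the endothelial marker Egfl7 (r = 0.98, Spearman 0.97), and 132 genes exceeded 0.9 with it. Nfatc1 was most like Foxd1 (r = 0.99, mean 1.28 TPM) and Trim24 (0.97), and Sox9 most like Lmnb2 (0.99) and Tfam (0.98). Tbx20 was most like Vcl and Dnajc21 (both 0.98). Twist1 was most like Alpk1 (0.97, mean 3.7 TPM) and Eif1b (0.96), and Prrx1 like Coq3 (0.97) and Slco2a1 (0.95). Tcf21 was most like Mmp16 (0.97) and Arhgef37 (0.96, mean 1.15 TPM), and Gata6 like Gbas (0.96) and Zfp521 (0.96). Gata4 was most like Igfbp5 (0.95, mean 1.54 TPM) and Arrb1 (0.94), and Msx1 like Mb21d2 (0.93) and Rab40b (0.92, mean 2.18 TPM). These r are the highest of 13494 values over only 9 libraries, so they are high by selection, and they were not tested. Each of the 10 members had between 10 and 132 genes over 0.9, and other genes were not examined in this way.

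Paralogues stood beside some members and were nearly silent for others. Twist2, the relative of Twist1, had a mean of 32.9 TPM, and Prrx2, that of Prrx1, 18.9 TPM. Tbx18 stood at 37.4 TPM, above Tbx5 (5.62 TPM), Tbx3 (3.43 TPM), Tbx2 (2.53 TPM) and Tbx15 (0.356 TPM). Nfatc3 (28.6 TPM) exceeded Nfatc1 in each library by range (24.8 to 32.7 TPM against 15.6 to 22.7 TPM), Nfatc4 had 16.9 TPM and Nfatc2 0.246 TPM. Gata5 (0.872 TPM), Msx2 (0.840 TPM), Sox10 (0.717 TPM), Sox8 (0.311 TPM) and Msc, the relative of Tcf21 (0.726 TPM), lay under 1 TPM. So did Tcf24 (0.173 TPM), Tcf23 (0.168 TPM), Tcf15 (0.0189 TPM) and Msx3, listed at 0 to 0.03 TPM. Of 20 paralogues 9 were tested and 0 passed in limma in any comparison, with or without the block. Tbx5 was lower with oxLDL than in Control at an unadjusted p under 0.05 (-0.30, limma adjusted p = 1), as was Twist2 with oxLDL against LDL (-0.24, limma adjusted p = 1). Nfatc4 differed by 0.19 between LDL and Control.

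Tgfbi, the fasciclin-family relative of Postn, did not share its order of libraries. It stood at 140, 86.8 and 56.9 TPM in Control, at 143, 89.3 and 92.7 TPM with LDL and at 99.8, 48.3 and 183 TPM with oxLDL, with its highest level in oxLDL 3.

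Genes that act with the members were counted from lists, and 0 genes of any of these lists passed in limma in any of the 3 comparisons, in either direction, with or without the block. Helix-loop-helix partners and inhibitors of Twist1 and Tcf21 (7 of 7 tested) had medians of -0.05 and -0.16 for LDL and for oxLDL, each relative to Control, and of 0.01 between the lipoproteins, an order kept below. The inhibitor Id3 was the highest at a mean of 641 TPM, and the partner Tcf12 stood at 110 TPM, Tcf3 at 59.8 TPM and Tcf4 at 49.6 TPM. Id1 and Id3 were lower with LDL than in Control without overlap, by -0.22 each (limma adjusted p = 0.49 and 0.68). Of the genes tested, 5.06% lay lower without overlap in this comparison. For Id3 the gap was narrow, with LDL 2 at 639.2 TPM and Control 3 at 639.4 TPM. The oxLDL libraries of Id1 (-0.16), Id2 (-0.18) and Id3 (-0.21) also lay below all Control libraries, as for 3.83% of the genes tested. That gap was narrow for Id1, with oxLDL 2 at 338.5 TPM and Control 1 at 339.1 TPM. With unadjusted p under 0.05 there were 0 higher and 2 lower genes, 0 and 1, and 0 and 0. In the third comparison Id2 (-0.13) had the smallest p.

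Calcineurin and NFAT control genes (13 of 14 tested) had medians of 0.02, -0.04 and 0.004, with 1 gene higher and 1 lower at an unadjusted p under 0.05, 0 and 0, and 0 and 1. Rcan2, an inhibitor of calcineurin, differed by -0.58 with LDL (limma adjusted p = 0.39), and Ppp3ca, its catalytic subunit, by 0.18 (limma adjusted p = 0.62) and by -0.24 between oxLDL and LDL (limma adjusted p = 0.68). Stim1, a calcium sensor, differed by 0.16 between oxLDL and Control.

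Partners and relatives of the GATA factors (10 of 13 tested) had medians of -0.08, 0.06 and 0.04, with 1 and 0, 0 and 0, and 0 and 1 genes at an unadjusted p under 0.05. Zfpm1, a cofactor that binds GATA proteins, was at 34.1, 28.3 and 32.0 TPM in Control, at 37.9, 46.6 and 48.6 TPM with LDL and at 36.6, 36.1 and 31.7 TPM with oxLDL. Its LDL libraries lay above all others. With LDL, 5.61% of the genes tested lay above Control without overlap. The log2 difference of Zfpm1 from Control was 0.48 (95% CI 0.22 to 0.73, limma adjusted p = 0.23, and 0.14 with the block). Hand2, a helix-loop-helix factor of the heart, had a mean of 120.0 TPM and differed by -0.15 from Control with either lipoprotein.

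Other cushion and mesenchyme factors (15 of 21 tested) had medians of 0.07, 0.05 and -0.01, with 2 and 1, 1 and 1, and 0 and 2 genes at an unadjusted p under 0.05. Snai1, a driver of epithelial to mesenchymal transition, was highest at 133 TPM. Its relative Snai2 was at 22.7, 19.8 and 30.5 TPM in Control, at 17.1, 16.5 and 17.5 TPM with LDL and at 18.1, 17.4 and 17.4 TPM with oxLDL, below all Control libraries in both. Among the genes tested, 5.06% lay below Control without overlap with LDL, and 3.83% with oxLDL. Snai2 differed from Control by -0.47 with LDL (limma adjusted p = 0.35) and by -0.42 with oxLDL (limma adjusted p = 1). Tead2, a partner of YAP, differed by 0.23 and 0.18 from the same Control libraries, and Meis2 by -0.33 between oxLDL and LDL.

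Partners and cartilage targets of Sox9 (8 of 16 tested) had medians of -0.16, -0.07 and 0.05, with 0 and 1, 0 and 1, and 1 and 0 genes at an unadjusted p under 0.05. Sox6 and Sox5, its partners, had means of 8.77 and 4.33 TPM. Col2a1, the cartilage collagen and a direct target of Sox9, was at 8.41, 5.22 and 7.62 TPM in Control, at 4.14, 2.10 and 3.92 TPM with LDL and at 11.9, 4.37 and 5.79 TPM with oxLDL. It was lower in all LDL libraries than in all others. With LDL, 5.06% of the genes tested lay below Control without overlap. The log2 difference of Col2a1 from Control was -0.90 (95% CI -1.64 to -0.15, limma adjusted p = 0.59, and 0.075 with the block). Col11a1 differed by -0.33 with LDL and -0.52 with oxLDL from Control (limma adjusted p = 0.84 and 1).

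Matricellular proteins like periostin (20 of 21 tested) had medians of -0.18, -0.02 and 0.03, with 3 and 2, 0 and 1, and 1 and 1 genes at an unadjusted p under 0.05. Sparc, which binds collagen, was highest at a mean of 2830 TPM. Thbs2, a thrombospondin, was at 86.3, 87.0 and 83.7 TPM with LDL and at 51.9, 32.0 and 52.5 TPM with oxLDL. These groups did not overlap, as for 4.2% of the genes tested in this direction. Thbs2 differed by -0.93 between oxLDL and LDL (95% CI -1.36 to -0.51, limma adjusted p = 0.29, and 0.10 with the block). Cyr61 (now called Ccn1) differed by -0.32 between LDL and Control (limma adjusted p = 0.41) and by 0.35 between oxLDL and LDL (limma adjusted p = 0.64). Wisp2 (Ccn5) differed by -0.33 between oxLDL and Control. Partners and receptors of periostin (12 of 12 tested) had medians of -0.05, -0.04 and 0.02, with 0 genes at an unadjusted p under 0.05 in each comparison. Itgb3, an integrin subunit, differed by -0.56 between oxLDL and LDL (limma adjusted p = 1), and Lox, which crosslinks collagen, by 0.33 between oxLDL and Control.

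In GENCODE M21 (GRCm38) the 10 members are protein-coding genes. Prrx1 lies on chromosome 1 from 163245119 to 163313710 (minus strand), Tcf21 on chromosome 10 from 22817281 to 22820174 (minus), Tbx20 on chromosome 9 from 24718138 to 24774303 (minus) and Postn on chromosome 3 from 54361109 to 54391037 (plus). The kit does not mark strand, so reads of a gene and of one that overlaps its exons on the other strand cannot be told apart. Such genes were Gm20471 for Prrx1 (mean 0.0611 TPM), 1010001N08Rik for Gata6 (4.69 TPM) and Gm10824 for Tcf21. The matrix lists no gene under the symbol Gm10824, so its level is unknown.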

How the data were processed

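The data are TPM of 9 RNA-seq libraries (3 each for Control, LDL and oxLDL). Per the submitters' processing notes, the authors used STAR (version not given in the sources used here), RSEM 1.3.1 and the build mm10, and deposited TPM per gene and library. The columns sum to 999998.81 to 1000000.43, and 0 columns were left out. Per the labels' protocols, libraries came from amplified cDNA of 50 ng total RNA, read in 100 bp pairs. Read depth is unknown, since TPM do not keep it.

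A pseudocount of 1 was added to the TPM before taking log2. Of the genes, 13495 reached a mean of 1 TPM and were tested, and 38315 did not. Two-sided tests came from limma (version 3.58.1, run under R 4.3.3), whose prior followed the mean level, with all 9 libraries in a single fit (6 residual degrees of freedom, 4 with the replicate block) and Benjamini-Hochberg adjustment over all genes tested. The threshold was an adjusted p of 0.05. The script was run on simulated data with known changes to check its code, which says nothing of these samples. 

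The fit with the replicate number as a block is printed beside the other where it matters, because same-numbered libraries deviated together. Groups were said not to overlap where all 3 values of a treatment lay above all 3 of another. Descriptions (levels, correlations, motif matches) used Python 3.11.15 with pandas 2.3.3. Genes named are the 10 members, up to 4 called genes of a list or the 2 with the smallest p, paralogues of members, and the 2 genes most like each member by Pearson r. From some lists fewer are printed. Other genes (such as Tcf3, Tcf12, Snai1, Sparc, Sox5, Sox6, Pdgfra, Cdh5, Myh11 and Wt1) were named for their level or as markers after their values were seen. The members and lists were chosen with earlier results of these data known. Symbols of lists absent from the matrix were matched through RefSeq synonyms. Alternatives were 2 pseudocounts, 2 filters, 2 scalings, the 6 compared libraries alone, a prior without trend, the block and each library left out in turn.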

Additional observations from a re-analysis of the deposited data

How the results depend on the processing

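With the replicate block 1 member passed for LDL against Control (0 without it), namely Prrx1, and 1 passed without Control 2 (Tcf21), so that the count ran from 0 to 1 over the fits that left out a library. In the other 2 comparisons 0 members passed under any alternative run. The block changed no other call among the members. Over the alternatives the adjusted p of Prrx1 for LDL against Control ran from 0.0495 to 0.84, and that of Tcf21 from 0.026 to 0.90. The pseudocounts of 0.5 and 5, the other filters, median-ratio and quantile scaling, the 6 compared libraries alone and the prior without trend turned no direction of a member. Leaving out a library turned the direction of some differences, those of Postn included. For LDL against Control these ran from -0.085 to 0.023 for Twist1, from -0.017 to 0.14 for Gata4, from -0.047 to 0.088 for Msx1 and from -0.19 to 0.017 for Nfatc1. For oxLDL against Control they ran from -0.011 to 0.15 for Msx1, from -0.043 to 0.16 for Nfatc1 and from -0.74 to 0.083 for Postn. For oxLDL against LDL they ran from -0.11 to 0.11 for Sox9, from -0.030 to 0.13 for Msx1 and from -0.18 to 0.70 for Postn. The cause of these turns was not tested. Read depth, which TPM do not keep, limits what can be said of the low paralogues.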

Other observations

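The ratio of Prrx1 to Tcf21, which stood apart in opposite directions with LDL, was formed after their values were seen and is given with no test. It was 1.05, 1.68 and 1.06 in the Control libraries, 2.01, 2.64 and 2.33 with LDL and 1.63, 2.14 and 1.67 with oxLDL. Every LDL library exceeded every Control library, and within each replicate number the oxLDL library lay between them. This order follows from the opposite orders of the 2 genes given above and adds no separate evidence. The ratio of Gata4 to Gata6, formed in the same way, was 2.40, 2.10 and 2.54 in Control, 2.62, 2.41 and 2.79 with LDL and 2.46, 2.39 and 2.32 with oxLDL. It was highest with LDL within each number, and the treatments overlapped.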
